A study of Mus musculus with 3 samples.

Results

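MC3T3-E1 is a preosteoblast line taken from the skull vault of the mouse, and its RNA was sequenced once for each of 3 conditions. Cells of the CTL library had no special treatment, those of the Ti library received Ti particles at 10 μg/cm2 for 24 h, and those of the Ti+Se-Met library received such particles together with 5 μM Se-Met (selenomethionine) for 24 h. All cells were of the wild-type line, so the libraries stand for 1 established cell line in culture and not for bone tissue. The genes described here are 9 transcription factors of the osteoblast lineage, chosen by name, namely Runx2, Runx1, Sp7, Dlx5, Msx1, Msx2, Twist1, Twist2 and Sox9. The choice was made with earlier results of these data known. All 9 were among the 15287 genes of the deposited table, and 7 of them reached an FPKM of at least 1, in each of the 3 libraries. Sp7 and Msx2 stayed below 1 FPKM in every library. FPKM is the number of fragments scaled to transcript length and to all mapped fragments of a library, so that levels of different genes can be set side by side. With 1 library for each, differences between conditions were without a replicate check and were given no p-value.

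Osteoblasts arise from mesenchymal cells under a chain of transcription factors. Runx2 commits cells to the lineage and acts as a dimer with Cbfb, and Sp7, also called osterix, acts after it. The homeobox factors Dlx5, Msx1 and Msx2 act in cranial bone downstream of BMP signals, the Twist proteins hold Runx2 back in early progenitors, and Sox9 directs the alternative fate of cartilage.

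Runx2 with Runx1 and Twist1 with Twist2 are pairs of paralogs whose levels differed from CTL in opposite directions in both libraries with Ti particles. The windows around their start sites are therefore shown, each from 250 bases before to 50 bases after the start of a transcript, 5′ to 3′ on the strand of the gene, as given by RefSeq on GRCm38.p6. The expression values were not placed by coordinates, and the labels name another build, mm9, for them. Of the 9 genes, 6 had such a window. In the Runx windows the capitals mark the core letters of the site that Runx proteins bind, TGTGGT, or ACCACA on the other strand. The Runx2 window lies at chr17:44814578-44814877 on the minus strand, and the distal and proximal Runx1 windows at chr16:92826025-92826324 and chr16:92697280-92697579, also on the minus strand.
Runx2: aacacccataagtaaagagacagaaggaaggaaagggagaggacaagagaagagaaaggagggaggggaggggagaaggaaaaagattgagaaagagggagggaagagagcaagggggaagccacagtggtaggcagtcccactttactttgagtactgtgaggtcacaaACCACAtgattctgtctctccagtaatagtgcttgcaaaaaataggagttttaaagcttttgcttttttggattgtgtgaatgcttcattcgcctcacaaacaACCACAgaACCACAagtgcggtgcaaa
Runx1 distal: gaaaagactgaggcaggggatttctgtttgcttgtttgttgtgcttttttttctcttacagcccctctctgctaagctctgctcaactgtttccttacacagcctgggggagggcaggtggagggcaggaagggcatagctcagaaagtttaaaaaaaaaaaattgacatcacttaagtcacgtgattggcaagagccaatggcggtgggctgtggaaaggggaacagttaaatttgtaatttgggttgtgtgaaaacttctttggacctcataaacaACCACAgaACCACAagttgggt
Runx1 proximal: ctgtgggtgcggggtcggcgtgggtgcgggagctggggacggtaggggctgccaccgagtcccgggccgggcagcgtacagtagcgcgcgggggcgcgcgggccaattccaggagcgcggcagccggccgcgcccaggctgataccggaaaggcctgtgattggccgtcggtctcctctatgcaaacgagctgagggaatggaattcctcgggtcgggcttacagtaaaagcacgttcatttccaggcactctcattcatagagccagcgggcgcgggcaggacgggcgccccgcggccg
The core letters occurred 3 times in the Runx2 window, 2 times in the distal Runx1 window and 0 times in the proximal one. Of 32851 mouse promoter windows of the same length, 16.8% held them at least once on either strand. The longest run of bases shared by the Runx2 and the distal Runx1 window was 22 bases long, aaacaACCACAgaACCACAagt, with a pair of the cores in it, and no window apart from these 2 among the 32851 held that run. The proximal Runx1 window was richer in G and C (69.0% of bases) than the distal one (45%) and that of Runx2 (45.3%). A gene's FPKM covers all of its transcripts, so the use of the promoters of Runx1 and Runx2 could not be read from these values.

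In the windows of the Twist genes the capitals mark the GC box GGGCGG, or CCGCCC on the other strand, which Sp proteins bind and which 35.7% of all windows held. The Twist1 window lies at chr12:33957421-33957720 and the Twist2 window at chr1:91801211-91801510, both on the plus strand.
Twist1: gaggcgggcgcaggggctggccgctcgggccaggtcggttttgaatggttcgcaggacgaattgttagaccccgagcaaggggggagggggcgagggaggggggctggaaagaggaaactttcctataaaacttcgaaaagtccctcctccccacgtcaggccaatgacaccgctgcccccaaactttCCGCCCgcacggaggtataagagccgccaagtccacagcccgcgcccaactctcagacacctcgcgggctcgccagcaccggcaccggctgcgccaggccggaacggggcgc
Twist2: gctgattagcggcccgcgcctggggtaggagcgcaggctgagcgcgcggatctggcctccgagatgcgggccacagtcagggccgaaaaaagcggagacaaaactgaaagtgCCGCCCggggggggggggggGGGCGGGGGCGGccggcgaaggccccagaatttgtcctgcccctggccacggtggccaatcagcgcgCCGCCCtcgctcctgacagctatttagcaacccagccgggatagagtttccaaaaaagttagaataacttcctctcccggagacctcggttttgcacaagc
The box occurred 1 time in the Twist1 window and 4 times in that of Twist2. The TATA letters TATAAA occurred in the Twist1 window and not in that of Twist2, against 13.6% of all windows. In the Twist1 window they began at position -126 from the start site. The E-box letters CATCTG and the homeodomain letters TAATTG were in none of the 7 windows of the members, against 17.2% and 8.0% of all windows. The Sox letters AACAAT, or ATTGTT on the other strand, occurred 1 time, in the Twist1 window, against 10.7% of all windows. These are matches of letters and not measured sites.

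CTL was estimated to hold 14000000 fragments, Ti 14850000 and Ti+Se-Met 10300000, from the steps between low FPKM values in short genes. Members with many fragments were therefore measured within narrow counting limits, and those below 1 FPKM were not. Fragments of the members ranged from 5 for Msx2 in Ti+Se-Met to 2145 for Sox9 in Ti. Intervals given below are exact 95% intervals on estimated fragments, which hold for counting error alone and set library against library rather than condition against condition.

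Where 3 FPKM values follow each other below, they stand for CTL, Ti and Ti+Se-Met in this order. In CTL, Twist1 was the highest of the 9 factors, above 90.2% of all listed genes, and Runx2 and Sox9 followed. Dlx5 and Runx1 stood in the middle, Msx1 was lower, and Twist2, Sp7 and Msx2 were near or below 1 FPKM. The order was different in both libraries with Ti particles, where Sox9 stood beside Twist1 and Runx1 beside Runx2. Neighbours in this order whose single-library counting intervals overlapped in CTL were Runx2 and Sox9, Dlx5 and Runx1, Twist2 and Sp7, and Sp7 and Msx2, so their order was not settled by these intervals, which does not show that the levels were equal. In the Ti library the neighbours whose intervals overlapped were Sox9 and Twist1, Runx1 and Runx2, Msx1 and Twist2, and Sp7 and Msx2. The same 4 pairs overlapped in Ti+Se-Met.

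**Figure D1:**
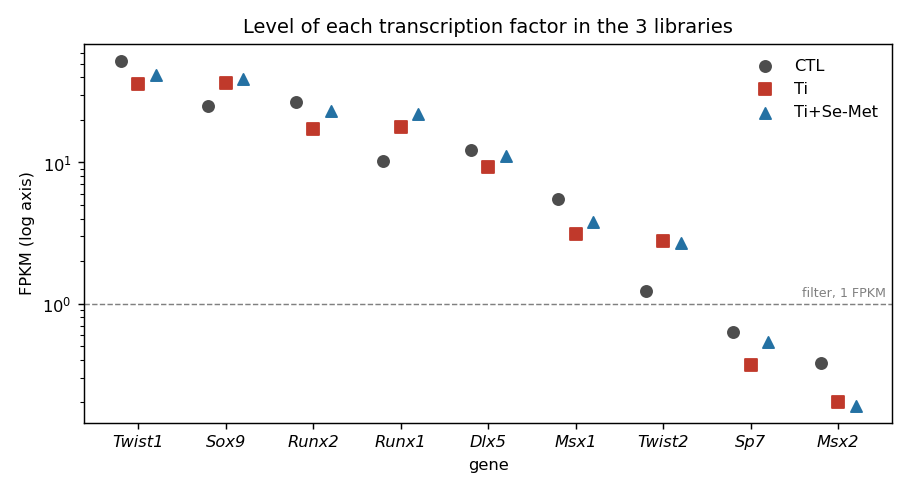
FPKM (log axis) of the 9 transcription factors, ordered by their mean, with 1 point per library (circle CTL, square Ti, triangle Ti+Se-Met) and a dashed line at the filter of 1 FPKM. The CTL point is the highest of the 3 for Twist1, Runx2, Dlx5, Msx1, Sp7 and Msx2, and the lowest for Sox9, Runx1 and Twist2.

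Runx2, the factor without which no osteoblast forms, was at 26.77 FPKM in CTL, 17.14 under Ti and 22.97 under Ti+Se-Met. CTL was thus the highest library and Ti the lowest, with Ti+Se-Met between them. The fold of the Ti library against CTL was 0.640 (interval 0.582 to 0.704) and that of Ti+Se-Met against CTL 0.858 (0.778 to 0.946). Against Ti alone, the Ti+Se-Met library held 1.34 times as much (1.20 to 1.49), the largest difference in this comparison among the 7 factors above the filter. Runx2os1, an antisense gene that was not listed in the table, shares 5.87% of the exon bases of Runx2 in GENCODE M21, and the kit named in the labels is not described as strand-specific.

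Runx1, a paralog of Runx2 best known from blood cells and also active in skeletal progenitors, ran the other way. Its level was 10.26 FPKM in CTL, 17.86 under Ti and 21.97 under Ti+Se-Met, so that it was lowest in CTL and highest in Ti+Se-Met. The fold was 1.74 (1.49 to 2.03) in Ti against CTL, 2.14 (1.83 to 2.50) in Ti+Se-Met against CTL and 1.23 (1.08 to 1.40) between Ti+Se-Met and Ti. Its antisense neighbour Gm26626, not listed, shares 0.881% of the exon bases of Runx1. Runx3, the remaining paralog and no member of the group, was at 8.21, 10.59 and 12.46 FPKM. The summed level of Runx1, Runx2 and Runx3 was 45.24 FPKM in CTL, 45.59 under Ti and 57.4 under Ti+Se-Met, and the part of it due to Runx2 was 59.2%, 37.6% and 40.0%.

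Sp7, a zinc finger factor that osteoblasts need after Runx2, was at 0.63 FPKM in CTL, 0.37 under Ti and 0.54 under Ti+Se-Met, on 24, 15 and 15 estimated fragments. A difference between any 2 libraries was not detectable at this depth, with intervals of the fold of 0.287 to 1.17 between Ti and CTL and 0.657 to 3.16 between Ti+Se-Met and Ti. An interval this wide also leaves room for a difference past 2-fold in either of them.

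Among the homeobox members, Dlx5, which activates Runx2 and Sp7 in response to BMP signals, was at 12.34 FPKM in CTL, 9.34 under Ti and 11.16 under Ti+Se-Met. Its level in Ti was 0.757 of that in CTL (0.612 to 0.935), and the interval of Ti+Se-Met against Ti, 0.943 to 1.51, included equal levels. Msx1, a repressor that keeps cranial progenitors undifferentiated, was at 5.52, 3.11 and 3.8 FPKM across CTL, Ti and Ti+Se-Met. Its fold in Ti against CTL was 0.563 (0.421 to 0.742), the lowest among the 7 factors above the filter, and 0.688 (0.510 to 0.926) in Ti+Se-Met against CTL. Msx2, its paralog, was at 0.38, 0.2 and 0.19 FPKM on 12, 7 and 5 fragments, and no difference was detectable. Dlx5 and Msx1 were thus lower in Ti than in CTL beyond counting error, while the intervals of Dlx5 between Ti+Se-Met and CTL (0.722 to 1.13) and of Msx1 between Ti+Se-Met and Ti (0.882 to 1.71) included equal levels.

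Twist1, a basic helix-loop-helix (bHLH) factor that blocks the DNA-binding domain of Runx2, was at 52.14 FPKM in CTL, 35.83 under Ti and 41.56 under Ti+Se-Met. Its level in Ti was 0.687 of that in CTL (0.626 to 0.754) and in Ti+Se-Met 0.797 (0.722 to 0.880), and the level in Ti+Se-Met was 1.16 times that in Ti (1.04 to 1.29). Twist1 thus followed the same order of libraries as Runx2. Twist2, also called Dermo1, was at 1.24, 2.8 and 2.71 FPKM on 20, 49 and 33 fragments, lowest in CTL and nearly level in the other two. The fold was 2.26 (1.35 to 4.10) in Ti against CTL and 2.19 (1.25 to 4.12) in Ti+Se-Met against CTL, and 0.968 (0.605 to 1.54) between Ti+Se-Met and Ti. An antisense gene, Gm29100, which was not listed, shares 46.5% of the exon bases of Twist2, so reads of these genes could not be told apart without strand.

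Sox9, the factor that starts the cartilage program, was at 24.94 FPKM in CTL, 36.25 under Ti and 39.29 under Ti+Se-Met. CTL was the lowest library, and the levels of the other two were close. The fold was 1.45 (1.36 to 1.56) in Ti against CTL, 1.58 (1.47 to 1.69) in Ti+Se-Met against CTL and 1.08 (1.02 to 1.16) between Ti+Se-Met and Ti. Cartilage matrix genes that Sox9 activates were near 0 in all libraries, apart from Col11a1. Of 14 such genes 9 were listed, and 8 of these stayed below 1 FPKM, among them Col2a1 at 0.18, 0.24 and 0.72 FPKM. Acan, another defining gene of cartilage, was not listed. Col11a1, a collagen chain that osteoblasts make too, was at 11.23 FPKM in CTL, 2.53 under Ti and 3.42 under Ti+Se-Met, opposite in direction to Sox9 against CTL. Between Ti+Se-Met and Ti both genes were higher in Ti+Se-Met, Col11a1 at a fold of 1.35.

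**Figure D2:**
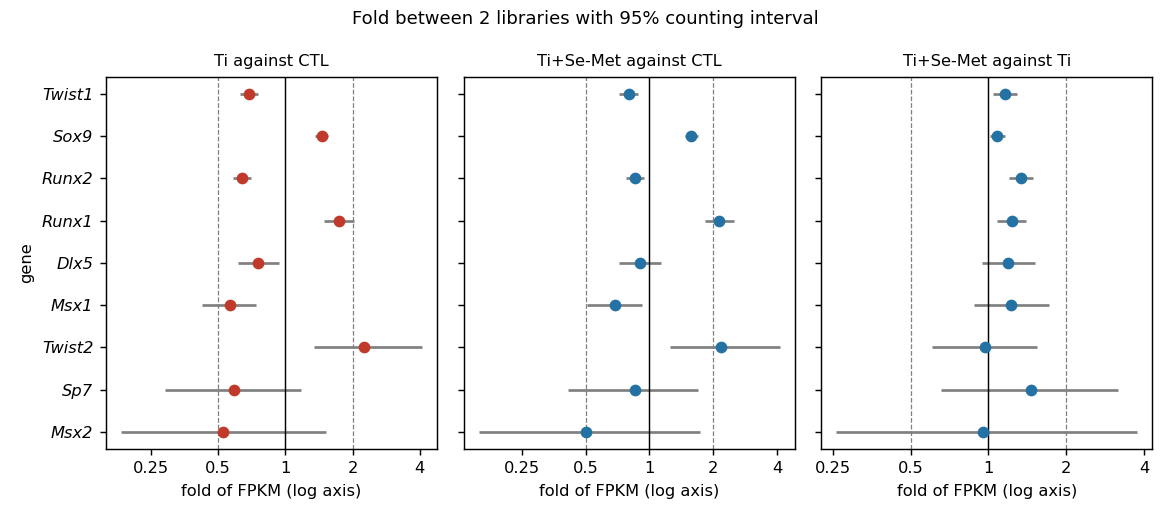
Fold of FPKM between 2 libraries (log axis) for each factor, with the exact 95% counting interval as a bar, a solid line at equal levels and dashed lines at 2-fold, in 1 panel per comparison. Against CTL, Runx1, Twist2 and Sox9 lie to the right of equal levels and Runx2, Twist1 and Msx1 to the left, while the bars of Sp7 and Msx2 cross the line in every panel.

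Because FPKM values are scaled to each library, the ratio of 2 genes within a library is free of any scaling between libraries. Runx2 stood at 2.61 times the level of Runx1 in CTL, 0.960 times under Ti and 1.05 times under Ti+Se-Met. Divided by its value in CTL, this ratio was 0.368 in the Ti library (interval 0.307 to 0.441) and 0.401 in the Ti+Se-Met library (0.333 to 0.484). Twist1 stood at 42, 12.8 and 15.3 times the level of Twist2 in CTL, Ti and Ti+Se-Met, and divided by CTL this ratio was 0.304 in the Ti library (0.166 to 0.515). The ratio of Runx2 to Sox9, which sets the osteoblast factor beside the cartilage factor, was 1.07 in CTL, 0.473 under Ti and 0.585 under Ti+Se-Met. It was the only one of the 4 ratios computed whose interval excluded an equal ratio in Ti+Se-Met against Ti, at 1.24 times the ratio in Ti (1.09 to 1.40). For Runx2 over Runx1 the value was 1.09 (0.919 to 1.29), and for Twist1 over Twist2 1.20 (0.743 to 1.94). Msx1 over Dlx5 was 0.447, 0.333 and 0.341, and its intervals included an equal ratio in each comparison. In the other pairs the first gene was below CTL and the second above it in both libraries with Ti particles. Their lower ratios against CTL therefore restate the levels given above and are no separate result.

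**Figure D3:**
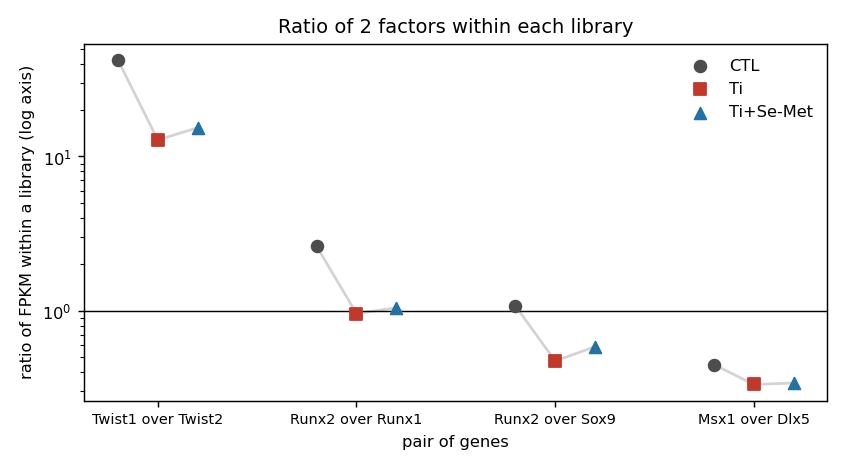
Ratio of the FPKM of 2 factors within each library (log axis), with 1 point per library joined by a grey line for each pair. For Twist1 over Twist2, Runx2 over Runx1 and Runx2 over Sox9 the CTL point stands well above the Ti and Ti+Se-Met points, which lie close together, and Msx1 over Dlx5 spans only 0.333 to 0.447.

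On the scale of log2(FPKM + 1), which shrinks the ratios of genes with low levels, none of the 7 factors above the filter was 2-fold or more from CTL in the Ti library (0 of 7, against 7.26% of 11137 genes). The log2 ratios were -0.61 for Runx2, -0.67 for Msx1, -0.53 for Twist1 and -0.37 for Dlx5, and 0.74 for Runx1, 0.76 for Twist2 and 0.52 for Sox9. Twist2, past 2-fold by FPKM itself, was below that limit here because of the added 1. At 1.5-fold 4 of 7 passed, Runx2 and Msx1 lower and Runx1 and Twist2 higher, against 26.8% of all genes. Between Ti+Se-Met and CTL, 1 of 7 passed 2-fold, Runx1 with a log2 ratio of 1.03, against 5.96% of all genes, and 3 of 7 passed 1.5-fold, Runx1, Twist2 and Sox9, all higher, against 22.2%. Between Ti+Se-Met and Ti, 0 of 7 passed either limit, against 0.224% of all genes at 2-fold and 2.14% at 1.5-fold, and Runx2 had the largest log2 ratio of the 7, 0.40. Among 664 genes that the deposited annotation calls DNA-binding transcription factors, 6.63% passed 2-fold between Ti and CTL, 6.78% between Ti+Se-Met and CTL, and 0 genes between Ti+Se-Met and Ti. The comparisons against CTL share the CTL library, and those with Ti share the Ti library.

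Counting intervals excluded equal levels for all 7 of these factors in Ti against CTL, for 6 in Ti+Se-Met against CTL, where Dlx5 was the exception, and for 4 in Ti+Se-Met against Ti. The last were Runx2, Runx1, Twist1 and Sox9, each higher in Ti+Se-Met. Over all 10918 genes with a known length, the intervals excluded equal levels for 73.6%, 67.8% and 43.0%, so that an interval free of equal levels was common in these libraries. In the direction of a higher level in Ti+Se-Met than in Ti, 15.0% of all genes did so. When FPKM sums were made equal between libraries (TPM), the median ratio of Ti to CTL over all genes went from 0.08 to -0.13 on the log2 scale. The direction of each of the 9 factors against CTL was the same under TPM and under scaling by upper quartile or by median of ratios. Runx1 in Ti+Se-Met against CTL was then below 2-fold under TPM and upper-quartile scaling.

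Genes with the nearest pattern were sought among 639 annotated transcription factors with a mean FPKM of at least 1, by the distance between their 2 log2 ratios against CTL, which rest on 3 libraries only. Nearest to Runx2 was Alx1 (distance 0.08), followed by Twist1 and Tcf12 (both 0.14). The nearest to Twist1 was Tcf12 (0.01), at 50.93 FPKM in CTL, 35.31 under Ti and 40.72 under Ti+Se-Met, with C130026I21Rik and Nr2c2 after it. For Runx1 it was Nfatc1 (0.03), at 7.81, 13.5 and 16.72 FPKM, followed by Egr3 and Snai1. Msx1 was nearest to Six2 (0.02), which was at 105.03, 64.76 and 76.93 FPKM, with Hoxa5 and Zfp395 next. Dlx5 had Zbtb41 (0.04), Klf7 and Ebf1 nearest to it. For Twist2 these were Zfp637 (0.11), Rxrb and E2f7, and for Sox9 they were Zkscan17 (0.02), Zbtb17 and Zfp628. With so few libraries many genes share a pattern, and the distance says nothing of how they are controlled.

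The 26 partners and cofactors of the Runx proteins were all above the filter, and their median log2 ratio of Ti to CTL was 0.03, against 0.08 for all genes, and it was -0.19 under TPM, where that of all genes was -0.13. The number past 2-fold was 2 of 26, a share near the 7.26% of all genes, and both were lower, namely Tle2 (27.45, 8.38 and 9.85 FPKM), a Groucho corepressor, and Zfp521 (6.59, 2.49 and 3.03 FPKM), a zinc finger protein that holds Runx2 back. Under TPM and under upper-quartile scaling 3 cofactors were lower past 2-fold in Ti against CTL. Tle2 alone passed between Ti+Se-Met and CTL (2 genes under TPM), against 5.96% of all genes. None passed between Ti+Se-Met and Ti, against 0.224% of all genes. Cbfb, the partner that stabilizes Runx proteins on DNA, was at 39.97 FPKM in CTL, 42.48 under Ti and 41.06 under Ti+Se-Met. The cofactor genes with the highest levels were Tle5 (456.33, 497.35 and 527.19 FPKM), Ddx5 (263.27, 225.78 and 208.54 FPKM) and Stub1 (100.37, 126.08 and 105.7 FPKM), and none of these reached 2-fold.

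Of 20 other homeobox genes of the skeleton, 17 were listed and 12 passed the filter. Under all 4 scalings 11 of these were lower and 1 higher in Ti than in CTL. None was past 2-fold, against 7.26% of all genes. As deposited, 4961 of all 11137 genes and 373 of 664 annotated transcription factors were lower. The median log2 ratio of the homeobox genes was -0.31 for Ti to CTL, -0.24 for Ti+Se-Met to CTL and 0.14 for Ti+Se-Met to Ti. The medians were 0.08, 0.01 and -0.06 for all genes and -0.09, -0.17 and -0.07 for annotated transcription factors. Dlx5 and Msx1 therefore had the direction of most of these homeobox genes. Prrx1, a factor of early limb and skull mesenchyme, was at 259.57, 156.52 and 152.19 FPKM, the highest of the list. Next came Prrx2 at 189.75, 150.89 and 178.71 FPKM and Alx1, a factor of facial mesenchyme, at 58.19, 39.54 and 51.29 FPKM. Sox5, which acts with Sox9 in cartilage, was at 1.95, 0.62 and 0.76 FPKM, and Sox6 was at or below 0.05 FPKM in each library. Of 7 Sox relatives listed for Sox9, 4 were in the table and 2 passed the filter, Sox5 and Sox4 (11.62, 16.86 and 13.24 FPKM). Neither was past 2-fold on the scale of log2(FPKM + 1), though Sox5 was by FPKM itself, with 0.318 of its CTL level in the Ti library. Sox5 reached the filter in CTL alone, where it was high, and so lends no weight to a direction.

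A further list held the bHLH partners of Twist, the Id proteins, which bind those partners and keep them off DNA, and other bHLH factors such as Hes1 and Bhlhe40. Its genes differed in direction. Of these 14 genes 11 were above the filter, with a median of -0.09 on the log2 scale in Ti against CTL. Past 2-fold, against 7.26% of all genes, were 1 higher and 1 lower gene. These were Hes1, a Notch-driven repressor (2.35, 8.07 and 6.84 FPKM), and Id2 (7.62, 3.03 and 4.97 FPKM). Id1 (2.6, 6.09 and 3.15 FPKM) was past 2-fold by FPKM itself in Ti against CTL, though not on the scale of log2(FPKM + 1). Between Ti+Se-Met and CTL the number past 2-fold was 2 (1 under TPM), against 5.96% of all genes, both higher, Hes1 and Bhlhe40 (21.77, 42.44 and 49.48 FPKM). Id3 alone passed 2-fold between Ti+Se-Met and Ti, where 0.224% of all genes did, at 9.34, 7.36 and 17.47 FPKM. Id4, the most abundant of the list, was at 179.97, 107.58 and 103.93 FPKM, and the E proteins Tcf3 and Tcf12 did not reach 2-fold.

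Of 32 other osteoblast transcription factors 27 passed the filter, and 9 were higher and 2 lower past 2-fold between Ti and CTL. In either direction 7.26% of all genes and 6.63% of annotated transcription factors passed this limit. The list was chosen with earlier results of these data known, so setting it beside these shares is no test. The number higher was 7 under TPM and 8 under scaling by median of ratios or upper quartile, with 2 lower under each. Their median log2 ratio was 0.18 as deposited and -0.03 under TPM. Cebpb, which works with Runx2 on the osteocalcin gene, was at 39.01, 143.71 and 120.58 FPKM, and Atf4, needed for matrix synthesis, at 91.03, 219.82 and 207 FPKM. Junb, an AP-1 subunit, had the largest log2 ratio of the list, 2.35, at 9.12, 50.44 and 49.13 FPKM. Cebpd, Foxc2, Nfatc2, Ets1, Egr1 and Vdr were the others above 2-fold, with log2 ratios from 1.03 to 1.54. Nfatc2 (0.69, 2.61 and 4.09 FPKM) reached the filter only in the libraries with Ti particles, where it was high. The 2 lower genes were Zfp423 (8.06, 3.29 and 4.58 FPKM) and Nr3c1, the glucocorticoid receptor (58.74, 27.93 and 28.33 FPKM). Set against CTL, Ti+Se-Met had 8 higher (5 under TPM and 6 under upper-quartile scaling) and 1 lower, against 5.96% of all genes in either direction. Nfatc1 (log2 ratio 1.01) was among the higher, and between Ti+Se-Met and Ti none passed 2-fold, against 0.224% of all genes.

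**Figure D4:**
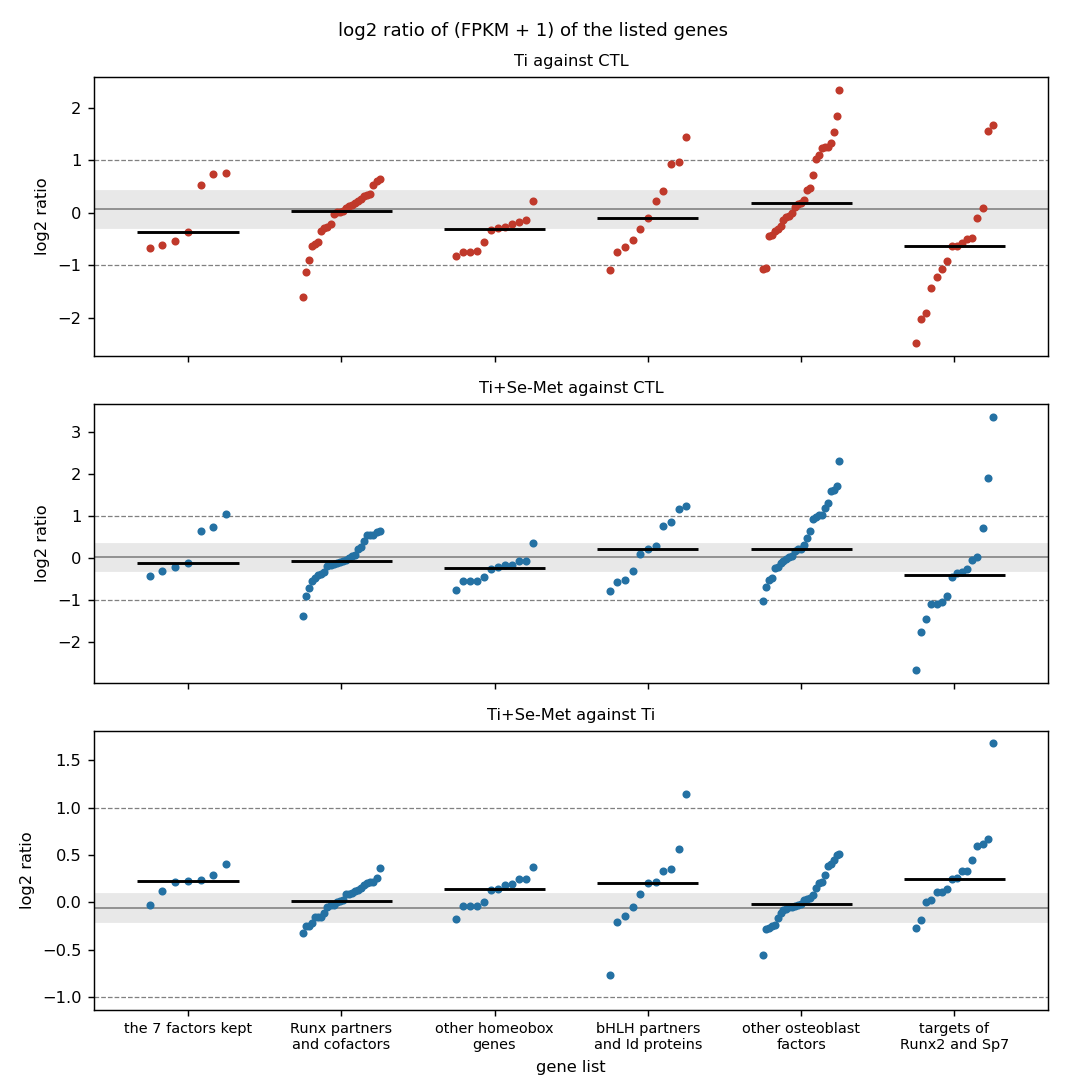
log2 ratio of FPKM + 1 for every gene above the filter in 6 lists (points), with the median of each list (black bar), the middle 50% of all 11137 genes (grey band), their median (grey line) and 2-fold (dashed lines), in 1 panel per comparison. The factors described here lie within 2-fold apart from Runx1 between Ti+Se-Met and CTL. Against CTL, some of the other osteoblast factors and of the targets of Runx2 and Sp7 reach well past it. A few Runx cofactors and bHLH or Id genes pass it there too. Between Ti+Se-Met and Ti only Id3 and Dmp1 pass it.

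Genes that Runx2 and Sp7 activate in osteoblasts were mostly lower in Ti, with 20 of 22 listed, 16 above the filter, 13 of these lower and a median log2 ratio of -0.63. Of all 11137 genes 4961 were lower, and their median was 0.08. Past 2-fold were 6 lower (7 under TPM) and 2 higher genes, against 405 lower and 404 higher of all 11137. The lower ones were Col1a1 (1333.19, 354.2 and 481.63 FPKM), Col1a2, Alpl, Fmod, Omd and Fgfr2, with log2 ratios from -2.49 to -1.06. The higher ones were Spp1, which encodes osteopontin (1261.19, 3705.78 and 4659.49 FPKM), and Dmp1 (0.45, 3.64 and 13.85 FPKM). Alpl (1.51, 0.2 and 0.2 FPKM) reached the filter in CTL alone and Dmp1 only in the libraries with Ti particles. Each thus passed it only where it was high, and neither lends weight to a direction. Between Ti+Se-Met and CTL the counts were again 6 lower and 2 higher, with a median of -0.41, against 370 lower and 294 higher of all genes. Between Ti+Se-Met and Ti 1 of the 16, Dmp1, was higher past 2-fold, against 18 of all 11137 genes. In that comparison 13 of the 16 were higher in Ti+Se-Met, with a median of 0.25, against 4289 of all 11137 genes and a median of -0.06. Fragments of Bglap and Bglap2 could be split between these near-identical copies, at 0.46, 0.8 and 0.31 FPKM and at 3.76, 1.51 and 2.98 FPKM.

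Against the label of a preosteoblast, the libraries held Runx2, Col1a1 and Spp1 at high levels, while Sp7 and, among genes of maturing osteoblasts, Alpl (1.51, 0.2 and 0.2 FPKM) and Ibsp (0, 0.04 and 0 FPKM) were low. Late genes did not share a direction, since Bglap2 was highest in CTL and Dmp1, which osteocytes express, was lowest there, at the values given above. In bulk RNA, fewer cells of a type and less RNA per cell cannot be told apart. Of 8 macrophage and osteoclast markers 4 were listed, with a sum of 17.86 FPKM in CTL, 30.18 under Ti and 26.74 under Ti+Se-Met that was nearly all Ctsk, a protease, while Ptprc, Adgre1, Itgam and Tyrobp were not listed. Endothelial markers summed to 0.28 to 0.49 FPKM, with 4 of 6 listed. Of 10 proliferation genes 9 were higher in Ti than in CTL (8 under TPM), against 6159 of 11137 genes as deposited. Mcm2 alone was past 2-fold in Ti against CTL, where 7.26% of all genes were. In Ti+Se-Met against CTL these were Mcm2, Ccnb1 and Birc5, against 5.96% of all genes. The summed level of the 10 proliferation genes was 221.7 FPKM in CTL, 359.98 under Ti and 418.66 under Ti+Se-Met. Their part in the levels of Runx1, Twist2 and Sox9, which were also lowest in CTL, was not tested.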

How the data were processed

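RNA-seq of 3 libraries of MC3T3-E1 cells, CTL, Ti and Ti+Se-Met, was examined, and each library was placed in its group by its treatment label. FPKM values per gene, rounded to 2 decimals, were deposited by the authors. Their methods name filtering of reads, HISAT2, Samtools and HTSeq counts per gene, the submitters' processing notes list HISAT2, StringTie, SAMtools and mm9, and how FPKM was derived is not given in the sources used here. All 3 columns were matched to a library by name and 0 were left out. No entry was 0 in all libraries.

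Ratios were computed as log2(FPKM + 1) for the 11137 genes that reached 1 FPKM in any library (Python 3.11.15, scipy 1.17.1, numpy 2.4.6, pandas 2.3.3). With 1 library per condition no test across replicates and no count model was used. Depth was estimated from low values (up to 1 FPKM) of 453 genes with 1 transcript of 350 to 1000 bases, 150 bases being subtracted, with lengths from GENCODE M21 matched by RefSeq accession. At the estimated depth 56.6%, 49.5% and 44.3% of the low values of CTL, Ti and Ti+Se-Met lay on a whole fragment, against 16.3%, 17.9% and 13.4% by chance, so the depth is approximate. Fragments of a gene were taken from its shortest listed transcript. Folds have exact conditional binomial 95% intervals, ratios of 2 genes exact conditional intervals of the odds ratio, and levels exact Poisson intervals. The steps were checked on simulated data.

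All 9 factors were named, of each other list the genes past 2-fold in any comparison and otherwise the 3 of highest mean FPKM, and 3 pattern neighbours were sought per factor with a mean FPKM of at least 1. Cbfb, Runx3, Sox6, Col2a1, abundant members of lists that had genes past 2-fold, Bglap, Bglap2, Ibsp and the named markers fall outside that rule and were chosen after their values were seen. The 4 pairs of factors whose ratios are given were not fixed by that rule either. The members and lists were chosen with earlier results of these data known. Other settings tried were limits of 1.5-fold and 4-fold, pseudocounts of 0.1 and 5, a filter on the mean (5 FPKM) or none, and scaling by upper quartile, TPM or median of ratios.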

Additional observations from a re-analysis of the deposited data

How the results depend on the processing

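No paired analysis was possible because only 1 library stood for each condition, which also meant that none could be left out. The number of the factors past 2-fold in Ti against CTL, 0, became 1 (Twist2) with a pseudocount of 0.1 and 4 at 1.5-fold. In Ti+Se-Met against CTL, 1 became 2 (Runx1 and Twist2) with a pseudocount of 0.1, 3 at 1.5-fold, and 0 with a pseudocount of 5, at 4-fold, under upper-quartile scaling and under TPM. Between Ti+Se-Met and Ti, 0 passed under every alternative run. These changes follow from how each alternative is made, since it rescales all genes or shifts the limit. Of 135 single values of the 9 factors under the pseudocounts and scalings, 2 changed sign, both for Twist2 in Ti+Se-Met against Ti, where the log2 ratio of -0.03 became 0.01 (median of ratios) and 0.02 (upper quartile). With TPM the interval of Sp7 in Ti against CTL and that of Dlx5 in Ti+Se-Met against CTL no longer included equal levels. Taking the longest listed transcript in place of the shortest, which was chosen after seeing the data, left the number of intervals excluding equal levels at 7, 6 and 4 of 9. Depth limits Sp7, Msx2 and Twist2 most.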

Other observations

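On the marker lists, the factors Pparg and Cebpa of fat and Myog of muscle were below 1 FPKM, while Scx and Mkx of tendon were above it. Cebpb, Cebpd and Zfp423, named above with the osteoblast factors, are not on the fat list and were above 1 FPKM in each library. Pparg, the factor of fat cells, was listed at 0 FPKM in CTL and Ti and at 0.17 in Ti+Se-Met, and Cebpa, which acts with it, was at 0.92, 0.81 and 0.64 FPKM across CTL, Ti and Ti+Se-Met. Of 8 fat-cell markers 5 were listed, with sums of 1.28, 1.69 and 1.68 FPKM. Of 7 myoblast genes only Des (1.05, 0.32 and 0.45 FPKM) and Myog (0.05, 0 and 0 FPKM) were listed, and Myod1, Myf5 and Pax7 were not. The tendon factor Scx, a bHLH protein, was at 3.88 FPKM in CTL, 5.55 under Ti and 7.26 under Ti+Se-Met, lowest in CTL as Sox9 was. Mkx, another tendon factor, was at 6.33, 5.67 and 5.47 FPKM, and Tnmd, which marks mature tendon cells, was not listed. Fmod (7.15, 1 and 1.39 FPKM) and Egr1 (6.44, 20.7 and 23.16 FPKM), which the tendon list shares with the lists of bone genes, were past 2-fold against CTL. None of the other genes named here from the fat, muscle and tendon lists reached 2-fold on the log2(FPKM + 1) scale in any comparison.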
